A study of Mus musculus with 9 samples.

Results

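The genes described here are 7 regulators of the sterol response and of low-density lipoprotein (LDL) uptake: Srebf1, Srebf2, Scap, Insig1, Insig2, Mylip and Stard4. They were taken by gene symbol from the deposited table of 49315 genes, and all 7 passed the filter on low counts that left 15963 genes for testing. They were followed in RAW 264.7 cells, a macrophage-like mouse line that turns osteoclast-like under RANKL, the cytokine of osteoclast formation. RNA was sequenced from 3 groups of 3 libraries each. In the pamidronate + GGOH group, cells received 140 µM of the nitrogen-containing bisphosphonate pamidronate together with 5.25 µM geranylgeraniol (GGOH). In the pamidronate group, cells received 140 µM pamidronate alone. The control group is labelled as untreated, but the growth notes describe 20 ng/ml RANKL for all cultures, so RANKL is shared by the 3 groups. Cells grew for 24 h before RANKL, treatment began at a total of 48 h, and cells were collected after a further 24 h. All libraries come from 1 cell line and carry 1 batch label, and only the controls are titled as biological replicates. The p-values therefore measure the spread between these libraries, which may be technical. The study asked whether GGOH, the alcohol of a lipid made downstream of the enzyme that pamidronate blocks, offsets the effects of the drug.

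Sterol regulatory element binding proteins (SREBPs) are made as membrane precursors in the endoplasmic reticulum. Scap escorts them to the Golgi, where proteases release the part that enters the nucleus, and the Insig proteins hold Scap back when sterols are plentiful. SREBP-2, the product of Srebf2, mainly drives genes of cholesterol synthesis and uptake, while SREBP-1, the product of Srebf1, leans towards fatty acid synthesis. Mylip is a ubiquitin ligase that sends receptors of the LDL receptor family to degradation and is a target of the oxysterol-sensing LXR receptors. Stard4 carries cholesterol between membranes. The libraries report RNA only, so precursor processing and protein levels were not measured.

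Promoters are shown for 3 of the genes, chosen because their RNA moved most (Insig1), moved in the opposite direction (Mylip) or encodes the factor of the sterol branch itself (Srebf2). The sequences are from RefSeq on GRCm38.p6, plus strand, 5′ to 3′, and stop before the first transcribed base. They span chr5:28071162-28071362 for Insig1, chr13:45389492-45389741 for Mylip and chr15:82147019-82147180 for Srebf2. Positions given below count from start sites at 28071412 for Insig1, 45389742 for Mylip and 82147269 for Srebf2. The Insig1 and Srebf2 stretches therefore end some way before the base from which positions count. In Srebf2, the matches to GGGCGG at -79 to -74, -52 to -47 and -34 to -29 lie beyond the printed stretch. Capitals mark the CCAAT box, printed as its complement where it lies on the other strand, the Sp1 motif GGGCGG on either strand, the E-box CACGTG in Insig1 and, in Srebf2, the core TCACNCCA.
Insig1: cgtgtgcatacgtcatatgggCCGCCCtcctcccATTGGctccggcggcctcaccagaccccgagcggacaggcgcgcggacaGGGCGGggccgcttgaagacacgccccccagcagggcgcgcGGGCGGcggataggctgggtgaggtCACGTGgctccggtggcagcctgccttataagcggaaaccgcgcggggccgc
Mylip: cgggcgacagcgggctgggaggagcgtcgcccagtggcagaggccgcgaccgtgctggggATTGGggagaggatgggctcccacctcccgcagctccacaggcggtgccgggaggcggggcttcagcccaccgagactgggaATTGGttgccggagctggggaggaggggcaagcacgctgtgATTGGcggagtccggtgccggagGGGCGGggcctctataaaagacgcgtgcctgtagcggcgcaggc
Srebf2: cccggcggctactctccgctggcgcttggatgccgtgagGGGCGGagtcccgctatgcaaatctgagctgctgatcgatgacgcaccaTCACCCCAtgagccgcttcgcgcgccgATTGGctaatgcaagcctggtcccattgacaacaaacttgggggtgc
RefSeq promoter windows, from 250 bases before to 50 after a start site, were matched for 6 of the 7 genes, in 11 windows. These motifs were searched on both strands, and no match of one overlapped a match of another, except that TCACNCCA is part of TCACNCCAC. The box CCAAT, bound by NF-Y, stood in the windows of 5 of the 6 genes, against 41.1% of all 27025 genes in the table. The Sp1 motif GGGCGG stood in 6 of 6, against 38.2%. The E-box CACGTG stood in Insig1 and Scap, against 8.09% of all genes. A gene with more windows has more chances of a match, so shares per window are given too. CCAAT stood in 6 of the 11 windows, against 37.4% of all 32851 windows. GGGCGG stood in 9 of 11, against 35.7%, and CACGTG in 3 of 11, against 7.15%. The Scap windows, with start sites at 110333288 and 110333356, overlap, so these windows are not separate chances. Their CACGTG match, at 28 to 33 from the first and -40 to -35 from the second, is the same site counted in both. The GGGCGG match at 38 to 43 from the first is likewise that at -30 to -25 from the second. The longer sterol regulatory element TCACNCCAC was in 0 of 6 genes and in 1.44% of all genes. Its shorter core TCACNCCA, chosen after the sequences were seen, was in Srebf2 alone, at -162 to -155 from the start site, and in 4.97% of all genes. The Insig1 window held the E-box at -101 to -96, and the Mylip window held 3 CCAAT boxes, the nearest at -67 to -63. A match describes letters in these windows and was not tied to binding.

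The libraries held 14356069 to 18957968 counts, of which the 7 genes had from 98 (Mylip, pamidronate replicate 3) to 6175 (Insig1, pamidronate replicate 3). Mitochondrially encoded genes took 5.43 to 6.31% of counts in the pamidronate + GGOH libraries, 3.71 to 5.19% in the pamidronate libraries and 10.4 to 10.8% in the control libraries. All 9 macrophage markers reached 1 CPM (a count scaled to the size of its library) in every group, with a summed level of 6958 to 10059 CPM with pamidronate + GGOH, 4862 to 6856 CPM with pamidronate and 15998 to 20698 CPM in controls. Of 10 osteoclast markers, 7 reached 1 CPM, with sums of 317 to 331 CPM with pamidronate + GGOH, 349 to 495 CPM with pamidronate and 217 to 247 CPM in controls. These markers did not move together. Atp6v0d2 lay at 84.3 to 152 CPM with pamidronate + GGOH, 204 to 329 CPM with pamidronate and 55.3 to 63.0 CPM in controls. Nfatc1 lay at 75.3 to 88.8 CPM with pamidronate + GGOH, 80.6 to 87.8 CPM with pamidronate and 128 to 138 CPM in controls. Calcr was at 0 counts with pamidronate and in controls. Summed markers of T cells, B cells and epithelial cells stayed under 2 CPM in every library. The endothelial list, led by Tek, summed to 17.4 to 43.4 CPM with pamidronate + GGOH, 5.56 to 7.25 CPM with pamidronate and 0.876 to 1.24 CPM in controls. The fibroblast and osteoblast list, led by Runx2, lay between 29.3 and 44.3 CPM in all groups. The part of these marker levels and mitochondrial shares in the results below was not tested. In bulk RNA, fewer cells of a type and less RNA per cell cannot be told apart.

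With pamidronate, Insig1, Srebf2 and Stard4 rose and Scap and Mylip fell against controls, while Srebf1 and Insig2 did not pass the test. Insig1 moved most, 15.4-fold higher. When GGOH was given with pamidronate, Insig1, Srebf2, Stard4 and Srebf1 fell against pamidronate alone and Scap rose. Mylip and Insig2 did not pass. Against controls, the pamidronate + GGOH libraries had lower Stard4, Mylip, Srebf1, Srebf2 and Scap. The calls of Srebf2 and Scap in that comparison were lost under several alternatives, given below.

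Calls are for an adjusted p under 0.05 in edgeR's quasi-likelihood test, with the Benjamini-Hochberg method applied over all 15963 genes. By this rule 5 of the 7 genes were called in pamidronate against control, where 69.2% of all genes tested were called. They were 3 higher, against 36.2% of all genes, and 2 lower, against 32.9%. In pamidronate + GGOH against pamidronate 5 were called, against 48.8% of all genes, with 1 higher (25.2% of all genes) and 4 lower (23.6%). In pamidronate + GGOH against control 5 were called, against 52.4% of all genes, with 0 higher (26.3% of all genes) and 5 lower (26%). In CPM, groups did not overlap for 5 of the 7 genes in pamidronate against control (73.4% of all genes). The count was 5 in pamidronate + GGOH against pamidronate (59.6%) and 4 in pamidronate + GGOH against control (58.2%). In pamidronate against control the count of called genes is close to the share over all genes. In the others it is above that share, a difference left without a test because the 7 genes were chosen with results known. The median log2 fold change of the 7 genes was 0.04 in pamidronate against control, against 0.08 over all genes. It was -0.34 in pamidronate + GGOH against pamidronate and -0.42 in pamidronate + GGOH against control, where the medians of all genes were 0.00 and 0.02. The comparisons share libraries, so they are not independent of each other.

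**Figure D1:**
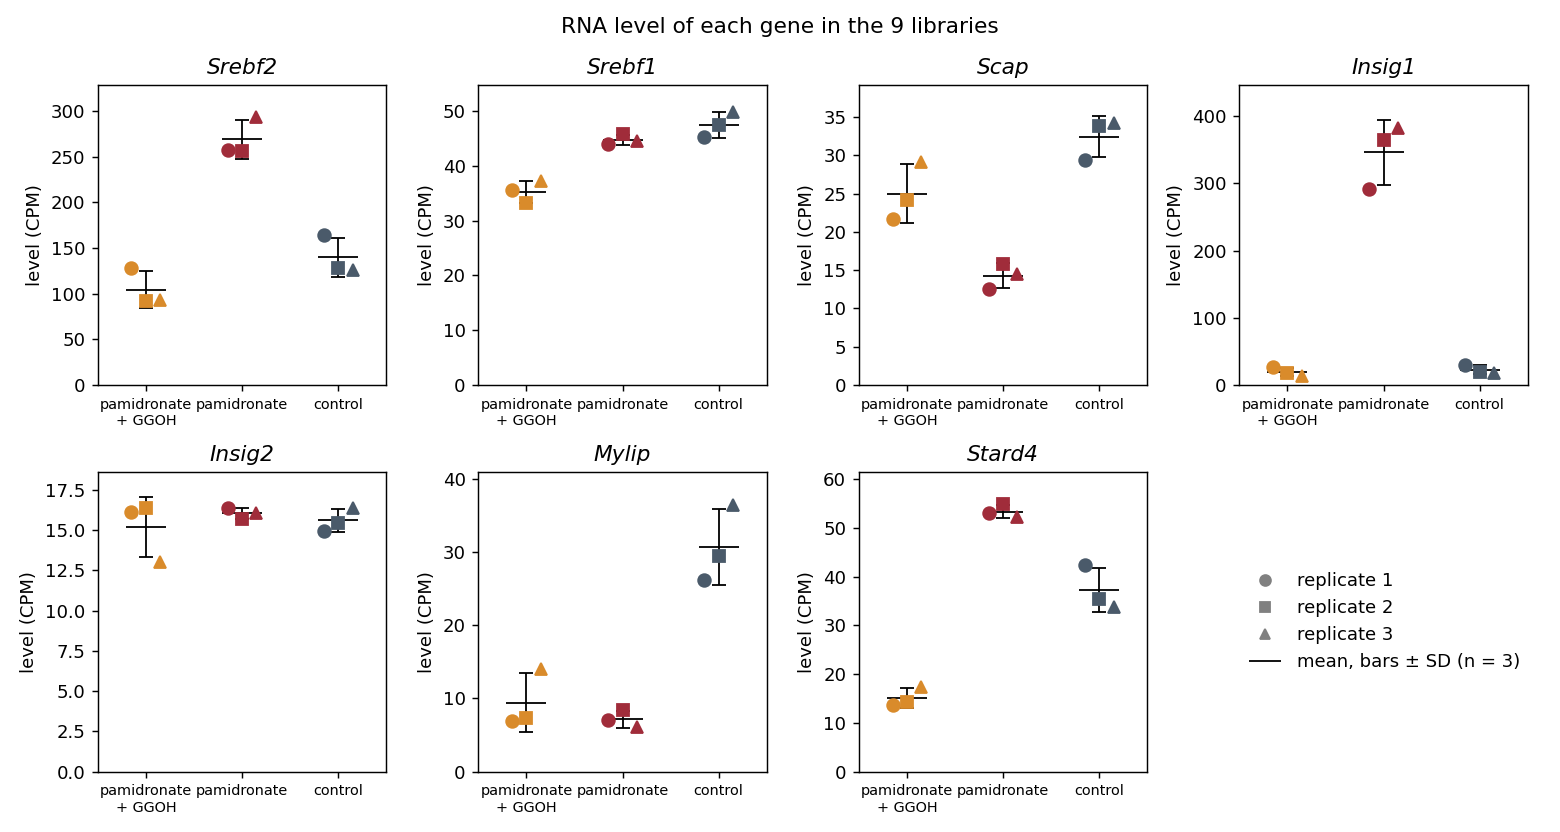
RNA level of each gene in CPM (vertical axis, from 0) in each library of the 3 groups, with marker shapes for replicate numbers and black lines for the mean ± SD (n = 3). Insig1 stands at 291.5 CPM or more in every pamidronate library and at 30.4 CPM or less elsewhere, while Mylip is at 26.2 CPM or more in the control libraries alone.

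Srebf2 (ENSMUSG00000022463, GRCm38 chromosome 15, 82147266 to 82205376, plus strand) encodes the factor of the sterol branch. It had 127.8, 92.4 and 93.3 CPM with pamidronate + GGOH, 257.5, 256.1 and 293.8 CPM with pamidronate, and 164.7, 128.7 and 126.3 CPM in controls. Every pamidronate library was above every other library, and the lowest control fell below the highest pamidronate + GGOH library. Srebf2 averaged 269 ± 21.4 CPM with pamidronate and 140 ± 21.5 CPM in controls (SD, n = 3 each), a log2 difference of 0.94 ± 0.14 (SE), or 1.92-fold (adjusted p = 3.65e-05). With GGOH it fell to 104.5 ± 20.1 CPM (SD, n = 3), or -1.36 ± 0.14 (SE) on the log2 scale against pamidronate alone (adjusted p = 5.42e-06). Against controls, pamidronate + GGOH gave -0.42 ± 0.14 (SE) with an adjusted p of 0.0198, although the groups overlap. That call of Srebf2 was lost with upper-quartile scaling factors (-0.22, adjusted p = 0.229), with a stricter filter on low counts (adjusted p = 0.0965) and with only the 2 groups in the fit (adjusted p = 0.0561). It was also lost without pamidronate + GGOH replicate 2 or 3 (adjusted p = 0.0814 and 0.0601) and without control replicate 1 (adjusted p = 0.0640). Deposited TPM values, which carry no scaling factors, were 71.2, 53.8 and 53.6 for Srebf2 with pamidronate + GGOH. In controls they were 70.2, 59.6 and 59.7, and these groups overlapped.

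Srebf1 (ENSMUSG00000020538, chromosome 11, 60199089 to 60222581, minus strand) followed another pattern. It had 35.5, 33.2 and 37.2 CPM with pamidronate + GGOH, 44.0, 45.8 and 44.5 CPM with pamidronate, and 45.2, 47.5 and 49.9 CPM in controls. The pamidronate + GGOH libraries were the lowest of the 9 in CPM, and the other groups overlapped. In deposited TPM, which carries no scaling factors, Srebf1 had 17.5, 17.1 and 18.9 TPM with pamidronate + GGOH and 17.1, 19.5 and 20.9 TPM in controls, and these groups overlapped. Pamidronate against control gave a log2 fold change of -0.09, with a 95% interval of -0.27 to 0.10 and an adjusted p of 0.378. Srebf1 fell with GGOH, to 35.3 ± 2.02 CPM against 44.8 ± 0.931 CPM with pamidronate alone (SD, n = 3 each), or -0.34 ± 0.09 (SE) with an adjusted p of 0.00443. Without pamidronate + GGOH replicate 2, this value was -0.25 with an adjusted p of 0.0566. Against the control mean of 47.5 ± 2.35 CPM (SD, n = 3), pamidronate + GGOH gave -0.43 ± 0.09 (SE, adjusted p = 0.000883), and -0.23 with upper-quartile factors (adjusted p = 0.0314). The gene shares 109 exonic bases with Rai1 on the other strand, which had up to 1183 counts, and 66 bases with the microRNA gene Mir6922, which had 0 counts. The strandedness of the counting is not given in the sources used here, so reads in the Rai1 overlap cannot be told apart. Mir33, a microRNA gene inside Srebf2, had at most 1 count in any library and shares 0 exonic bases with it.

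Per length, in TPM as deposited, a count over exon length scaled to the library, Srebf2 exceeded Srebf1 in every library. The ratio of Srebf2 to Srebf1 was 4.06, 3.14 and 2.83 with pamidronate + GGOH, 6.61, 6.32 and 7.46 with pamidronate, and 4.11, 3.06 and 2.86 in controls. Pamidronate libraries had the highest ratios, with no overlap, and the other groups covered nearly the same range. On the log2 scale, the ratio of Srebf1 to Srebf2 differed by -1.04 between pamidronate and control, and by 1.04 between pamidronate + GGOH and pamidronate. Each difference had a two-sided exact permutation p of 0.1, the smallest that 3 against 3 libraries allow. Between pamidronate + GGOH and control the difference was -0.00 (exact permutation p = 1).

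Scap, the escort (ENSMUSG00000032485, chromosome 9, 110333288 to 110384950, plus strand), fell where Srebf2 rose. Its levels were 21.6, 24.2 and 29.2 CPM with pamidronate + GGOH, 12.6, 15.8 and 14.6 CPM with pamidronate, and 29.3, 33.8 and 34.2 CPM in controls. In CPM the 3 groups did not overlap, though pamidronate + GGOH replicate 3 lay just under the lowest control. In deposited TPM, Scap had 8.08, 9.43 and 11.2 TPM with pamidronate + GGOH and 8.38, 10.5 and 10.8 TPM in controls. These groups overlapped in TPM. Scap averaged 14.3 ± 1.60 CPM with pamidronate and 32.4 ± 2.71 CPM in controls (SD, n = 3 each), or -1.18 ± 0.13 (SE) on the log2 scale (adjusted p = 1.60e-06). With GGOH it rose to 25.0 ± 3.84 CPM (SD, n = 3), 0.81 ± 0.13 (SE) above pamidronate alone with an adjusted p of 0.000158. Against controls it stayed lower at -0.38 ± 0.13 (SE), with an adjusted p of 0.0217. That last call of Scap was lost with upper-quartile factors (-0.18, adjusted p = 0.230), the stricter filter (adjusted p = 0.0959) and the 2 groups alone (adjusted p = 0.0505). It was lost too without pamidronate + GGOH replicate 1 or 2 (adjusted p = 0.0891 and 0.0682) and without control replicate 2 or 3 (adjusted p = 0.0668 and 0.0531). Scap shares 985 exonic bases with 5830462I19Rik on the other strand, which had at most 38 counts.

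Insig1 (ENSMUSG00000045294, chromosome 5, 28071363 to 28078662, plus strand), itself a known SREBP target whose product retains Scap, showed the widest span. Levels of Insig1 were 26.3, 17.9 and 14.0 CPM with pamidronate + GGOH, 291.5, 364.0 and 382.5 CPM with pamidronate, and 30.4, 18.9 and 18.3 CPM in controls. The pamidronate libraries stood far above the rest, and the remaining groups overlapped. With pamidronate the mean was 346 ± 48.1 CPM, against 22.5 ± 6.81 CPM in controls (SD, n = 3 each). This difference of 3.94 ± 0.29 (SE) on the log2 scale (adjusted p = 5.31e-06) placed Insig1 at rank 293 from the highest among 15963 genes. With GGOH the mean fell to 19.4 ± 6.26 CPM (SD, n = 3), a log2 fold change of -4.16 ± 0.29 (SE), or 17.8-fold lower than pamidronate alone (adjusted p = 1.37e-05). In that comparison Insig1 was rank 3 from the lowest fold change of all genes tested. Pamidronate + GGOH against control gave -0.22, with a 95% interval of -0.86 to 0.43 and an adjusted p of 0.543, and 0.05 without control replicate 1.

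Insig2 (ENSMUSG00000003721, chromosome 1, 121304353 to 121332589, minus strand), which encodes the paralog with the same retention role, lay in a narrow band. Its levels were 16.1, 16.4 and 13.0 CPM with pamidronate + GGOH, 16.4, 15.7 and 16.0 CPM with pamidronate, and 15.0, 15.5 and 16.4 CPM in controls. All groups overlapped, and the lowest value was that of pamidronate + GGOH replicate 3. The log2 fold changes of Insig2 were 0.04 for pamidronate against control (95% interval -0.21 to 0.29, adjusted p = 0.774) and -0.08 for pamidronate + GGOH against pamidronate (-0.33 to 0.17, adjusted p = 0.600). For pamidronate + GGOH against control the value was -0.04 (-0.29 to 0.21, adjusted p = 0.792), and its sign changed to 0.16 with upper-quartile factors.

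The balance of the Insig pair was read from TPM, which allow for gene length. In TPM, the ratio of Insig1 to Insig2 was 1.83, 1.23 and 1.21 with pamidronate + GGOH, 20.0, 26.1 and 26.8 with pamidronate, and 2.28, 1.37 and 1.25 in controls. Insig1 made up 54.7 to 64.7% of the summed Insig TPM with pamidronate + GGOH, 95.2 to 96.4% with pamidronate and 55.6 to 69.5% in controls. The mean log2 ratio was 4.59 ± 0.23 with pamidronate and 0.66 ± 0.47 in controls (SD, n = 3 each), a difference of 3.93 with an exact permutation p of 0.1, the smallest possible. With pamidronate + GGOH it was 0.48 ± 0.34 (SD, n = 3), which differed from pamidronate alone by -4.11 (exact permutation p = 0.1) and from controls by -0.18 (exact permutation p = 0.5). Among the controls, replicate 1 had the highest ratio.

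**Figure D2:**
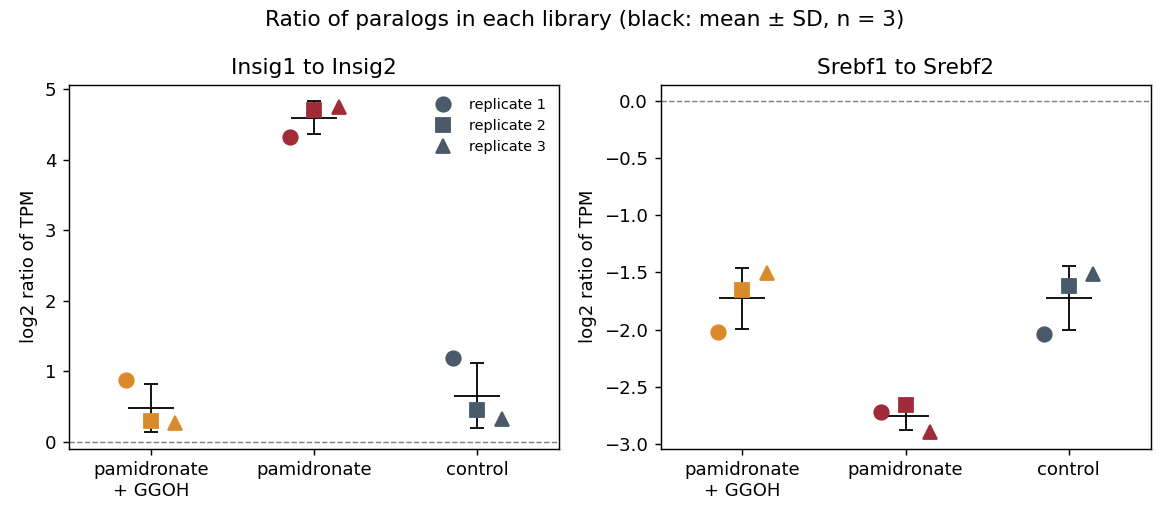
Log2 ratio of TPM (vertical axis) of Insig1 to Insig2 and of Srebf1 to Srebf2 in each library, by group, with black lines for the mean ± SD (n = 3). The pamidronate libraries stand apart in both panels, with mean log2 ratios of 4.59 and -2.76, while the pamidronate + GGOH and control libraries overlap.

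Mylip (ENSMUSG00000038175, chromosome 13, 45389742 to 45412019, plus strand), the ligase against LDL receptor family proteins, was low in both drug-treated groups. It had 6.93, 7.29 and 14.1 CPM with pamidronate + GGOH, 7.03, 8.41 and 6.07 CPM with pamidronate, and 26.2, 29.5 and 36.4 CPM in controls. Both treated groups lay below every control and overlapped each other, with pamidronate + GGOH replicate 3 the highest treated library. Mylip averaged 7.17 ± 1.18 CPM with pamidronate and 30.7 ± 5.18 CPM in controls (SD, n = 3 each), which is 4.28-fold lower, or -2.10 ± 0.26 (SE) on the log2 scale (adjusted p = 3.72e-05). With pamidronate + GGOH it averaged 9.43 ± 4.04 CPM (SD, n = 3), -1.69 ± 0.25 (SE) against controls with an adjusted p of 0.000344. Against pamidronate alone the difference was 0.40 (95% interval -0.20 to 1.00, adjusted p = 0.245). Without pamidronate + GGOH replicate 3 that difference was 0.03 (adjusted p = 0.909), and with no filter on low counts it was called, at 0.46 (adjusted p = 0.0221). The summed level of the macrophage markers given above, most of it from Lyz2, was also lower in both treated groups than in controls. Lyz2, Csf1r, Adgre1, Cd68, Ptprc, Spi1 and Fcgr3 each lay below every control library in both treated groups. Itgam lay below controls with pamidronate alone and overlapped them with pamidronate + GGOH. Cd14 of that list overlapped between all groups. It lay at 619 to 783 CPM with pamidronate + GGOH, 514 to 712 CPM with pamidronate and 654 to 722 CPM in controls.

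Stard4 (ENSMUSG00000024378, chromosome 18, 33199355 to 33213862, minus strand), the cytosolic sterol carrier, separated the 3 groups. It had 13.6, 14.4 and 17.3 CPM with pamidronate + GGOH, 52.9, 54.8 and 52.2 CPM with pamidronate, and 42.5, 35.5 and 33.8 CPM in controls. No group overlapped another, and the pamidronate + GGOH libraries were the lowest. Stard4 averaged 53.3 ± 1.38 CPM with pamidronate and 37.3 ± 4.58 CPM in controls (SD, n = 3 each), which is 1.43-fold higher, or 0.52 ± 0.11 (SE) on the log2 scale (adjusted p = 0.000753). With GGOH it fell to 15.1 ± 1.97 CPM (SD, n = 3), -1.82 ± 0.12 (SE) against pamidronate alone with an adjusted p of 8.31e-08. The level with pamidronate + GGOH was also 2.46-fold lower than in controls, -1.30 ± 0.12 (SE, adjusted p = 1.91e-06).

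**Figure D3:**
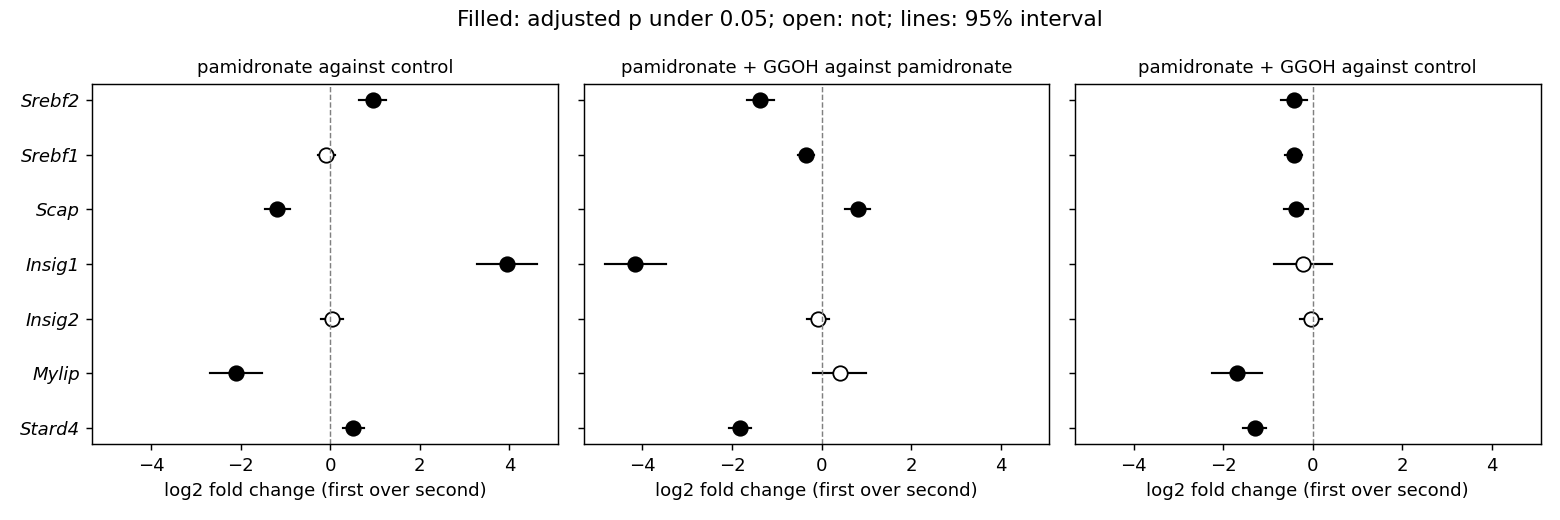
Log2 fold change (horizontal axis, first group over second) of each gene in the 3 comparisons, with 95% intervals. Filled points have an adjusted p under 0.05, and Insig1 lies farthest from 0 in the pamidronate comparisons, at 3.94 against control and -4.16 for pamidronate + GGOH against pamidronate.

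Within a group, some libraries stood to one side for several genes. Control replicate 1 had the highest control level of Insig1, Srebf2 and Stard4 and the lowest of Srebf1, Scap, Insig2 and Mylip. Among the pamidronate + GGOH libraries, replicate 3 had the lowest Insig1 and Insig2 and the highest Srebf1, Scap, Mylip and Stard4. Upper-quartile factors moved the median of all genes by 0.20 in pamidronate + GGOH against control, by 0.19 in pamidronate against control and by 0.01 in pamidronate + GGOH against pamidronate. Of the genes called in pamidronate + GGOH against control, 50.3% were higher with the main factors and 69.2% with upper-quartile factors. In pamidronate against control these shares were 52.4% and 61.9%. The deposited TPM values carry no such factors, which were 1.09 to 1.12 in the pamidronate + GGOH libraries and 0.904 to 0.955 in the control libraries.

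In TPM, which allow levels of different genes to be compared, the order of the 7 genes differed between groups. With pamidronate + GGOH, Srebf2 led at 59.5 ± 10.1 TPM (SD, n = 3), followed by Srebf1 at 17.9, Insig1 at 17.8, Insig2 at 12.5, Scap at 9.58, Mylip at 8.79 and Stard4 at 7.72 TPM. With pamidronate, Insig1 led at 277 ± 32.7 TPM (SD, n = 3), followed by Srebf2 at 134, Stard4 at 23.7, Srebf1 at 19.7, Insig2 at 11.5, Mylip at 5.81 and Scap at 4.76 TPM. In controls, Srebf2 led at 63.2 ± 6.08 TPM (SD, n = 3), followed by Mylip at 22.8, Srebf1 at 19.1, Insig1 at 16.3, Stard4 at 15.0, Insig2 at 10.2 and Scap at 9.90 TPM. With pamidronate only the neighbours Mylip and Scap overlapped in their ranges over libraries. With pamidronate + GGOH every pair of neighbours below Srebf2 overlapped. In controls every pair of neighbours overlapped except Srebf2 with Mylip and Stard4 with Insig2.

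Other genes of the pathway were read from the same fit, in lists by role. In each list, a count is of genes called in either direction, and the share of all genes called is as given above. Of 20 enzymes of sterol synthesis, known SREBP-2 targets, 13 rose and 3 fell with pamidronate against control (median log2 fold change 0.69). Msmo1, which oxidises methyl groups of sterol intermediates, had 167 ± 13.7 CPM with pamidronate and 41.2 ± 11.2 CPM in controls (SD, n = 3 each), or 2.02 ± 0.27 (SE) on the log2 scale. Hmgcs1, an early enzyme of the pathway, rose by 2.46 on the same scale. Among those that fell were the mevalonate kinase gene Mvk at -0.99 and the sterol isomerase gene Ebp at -0.91. Given with pamidronate, GGOH left 1 of these higher than pamidronate alone, Ebp at 0.49, and 15 lower (median -1.60), with Hmgcs1 at -2.98 and Msmo1 at -2.28. Against controls, 0 rose and 14 fell with pamidronate + GGOH (median -0.65), while upper-quartile factors gave 0 that rose and 10 that fell. Hmgcs1 was at -0.52 ± 0.14 (SE, adjusted p = 0.00833) in that comparison, a call lost with upper-quartile factors (adjusted p = 0.0993). Msmo1 was at -0.26 (adjusted p = 0.442), and at -0.60 without pamidronate + GGOH replicate 1 (adjusted p = 0.0270).

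Of 16 genes of fatty acid synthesis, known SREBP-1 targets, 14 were tested, as Thrsp and Pnpla3 did not pass the filter. With pamidronate against control, 4 rose and 8 fell (median -0.39), while upper-quartile factors gave 4 that rose and 5 that fell. Fasn, which builds palmitate, had 177 ± 16.2 CPM with pamidronate and 314 ± 1.55 CPM in controls (SD, n = 3 each), a log2 fold change of -0.83 ± 0.11 (SE). The elongase gene Elovl5 fell by 0.92 and the desaturase gene Fads1 by 0.64 on the log2 scale, while Acsl3, which activates fatty acids, rose by 0.64. The others that rose were Mid1ip1 (0.50), Acss2 (0.46) and Gpam (0.29). Relative to pamidronate alone, 1 rose with pamidronate + GGOH, the malic enzyme gene Me1 at 1.38, and 10 fell (median -0.49), among them Acsl3 at -1.53 and Fads1 at -0.52. Against controls, 1 rose and 12 fell with pamidronate + GGOH (median -0.81), with Me1 at 1.02, Fasn at -1.19 and Fads1 at -1.16. Upper-quartile factors gave 1 that rose and 10 that fell in that comparison.

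Genes that move, cut or degrade SREBPs and their escorts made a list of 21, of which 20 were tested and Spring1 was not analysed here. With pamidronate against control, 10 rose and 5 fell (median 0.17). Sec24a, a cargo adaptor in the coat of vesicles that leave the endoplasmic reticulum, had 421 ± 30.8 CPM with pamidronate and 159 ± 6.13 CPM in controls (SD, n = 3 each), or 1.41 ± 0.09 (SE) on the log2 scale (adjusted p = 1.66e-08). Its coat partners Sec23a and Sec13 rose by 1.19 and 0.84. Mbtps2, the protease that makes the second SREBP cut, fell to 39.8 ± 0.978 CPM with pamidronate, against 96.7 ± 2.54 CPM in controls (SD, n = 3 each), or -1.28 ± 0.09 (SE, adjusted p = 1.82e-08). Also lower were Fbxw7 (-0.83), which marks nuclear SREBPs for degradation, Rnf145 (-0.53), a ubiquitin ligase of the endoplasmic reticulum, and Erlin1 (-0.69). Relative to pamidronate alone, 6 rose and 10 fell with pamidronate + GGOH (median -0.20), with Sec24a at -1.37, Sec23a at -1.12, Sec13 at -0.89 and Mbtps2 at 0.58. Against controls, 2 rose and 7 fell with pamidronate + GGOH (median -0.05), whereas upper-quartile factors gave 7 that rose and 4 that fell. Those 2 were Paqr3 (0.77), whose product tethers Scap to the Golgi, and Syvn1 (0.22). Mbtps2 was at -0.70 ± 0.09 (SE) in that comparison.

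Of 23 genes of lipoprotein uptake and sterol transport, 21 were tested, as Vldlr and Osbpl5 did not pass the filter. With pamidronate against control, 6 rose and 8 fell (median -0.07), but upper-quartile factors gave 9 that rose and 5 that fell. Dab2, a clathrin adaptor for lipoprotein receptors, had 223 ± 28.7 CPM with pamidronate and 825 ± 202 CPM in controls (SD, n = 3 each), a log2 fold change of -1.89 ± 0.19 (SE). Ube2d1, a ubiquitin-conjugating enzyme of the family that works with Mylip, fell by 1.23. Stard5, another sterol carrier, fell by 0.74. Lrp8, an LDL receptor family member, rose by 0.97 ± 0.10 (SE). With GGOH, 4 rose against pamidronate alone, Dab2 at 1.14, Ube2d1 at 0.80, Stard5 at 0.47 and Gramd1b at 0.26, and 10 fell (median -0.24), with Lrp8 at -1.13. Stard5 lost its call without pamidronate replicate 2 (adjusted p = 0.0618). Against controls, 1 rose with pamidronate + GGOH, Gramd1c at 3.26 with 6.82 ± 2.63 CPM against 0.697 ± 0.270 CPM in controls (SD, n = 3 each), and 10 fell (median -0.27), while upper-quartile factors gave 4 that rose and 7 that fell.

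Mylip is read here beside other LXR targets, the LXR receptors and receptors of the RXR family, 9 genes in all. With pamidronate against control, 1 rose and 5 fell (median -0.76), and upper-quartile factors gave 2 that rose and 5 that fell. The cholesterol exporter genes Abca1 and Abcg1 fell, at -2.11 ± 0.44 and -1.66 ± 0.30 (SE), as did Nr1h3, which encodes LXR alpha, at -1.22 and Lpcat3 at -0.76. Pltp, a phospholipid transfer protein, had 27.8 ± 1.61 CPM with pamidronate and 197 ± 25.8 CPM in controls (SD, n = 3 each), or -2.83 ± 0.15 (SE). Apoe, the apolipoprotein, rose by 2.52 ± 0.23 (SE), at 6.18 ± 0.767 CPM with pamidronate and 1.07 ± 0.210 CPM in controls (SD, n = 3 each). With GGOH, 2 rose against pamidronate alone, Pltp at 1.68 and Lpcat3 at 0.48, and 3 fell, Apoe at -0.86, Rxra at -0.31 and Nr1h2 at -0.27 (median 0.05). Abca1 was at -1.11 ± 0.45 (SE, adjusted p = 0.0822), a difference that DESeq2 (adjusted p = 0.0273) and limma-voom (adjusted p = 0.0205) called. Against controls, 1 rose with pamidronate + GGOH, Apoe at 1.66, and 4 fell (median -0.45), Abca1 at -3.22 ± 0.46 (SE), Abcg1 at -1.42, Pltp at -1.15 and Rxra at -0.45. Upper-quartile factors gave 1 that rose and 3 that fell in that comparison. Of 5 enzymes that make or clear oxysterols, the ligands of LXR, only Cyp27a1 was tested. Cyp27a1 had 12.1 ± 1.67 CPM with pamidronate + GGOH, 3.16 ± 0.292 CPM with pamidronate and 22.4 ± 1.11 CPM in controls (SD, n = 3 each), and it was called in all 3 comparisons.

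**Figure D4:**
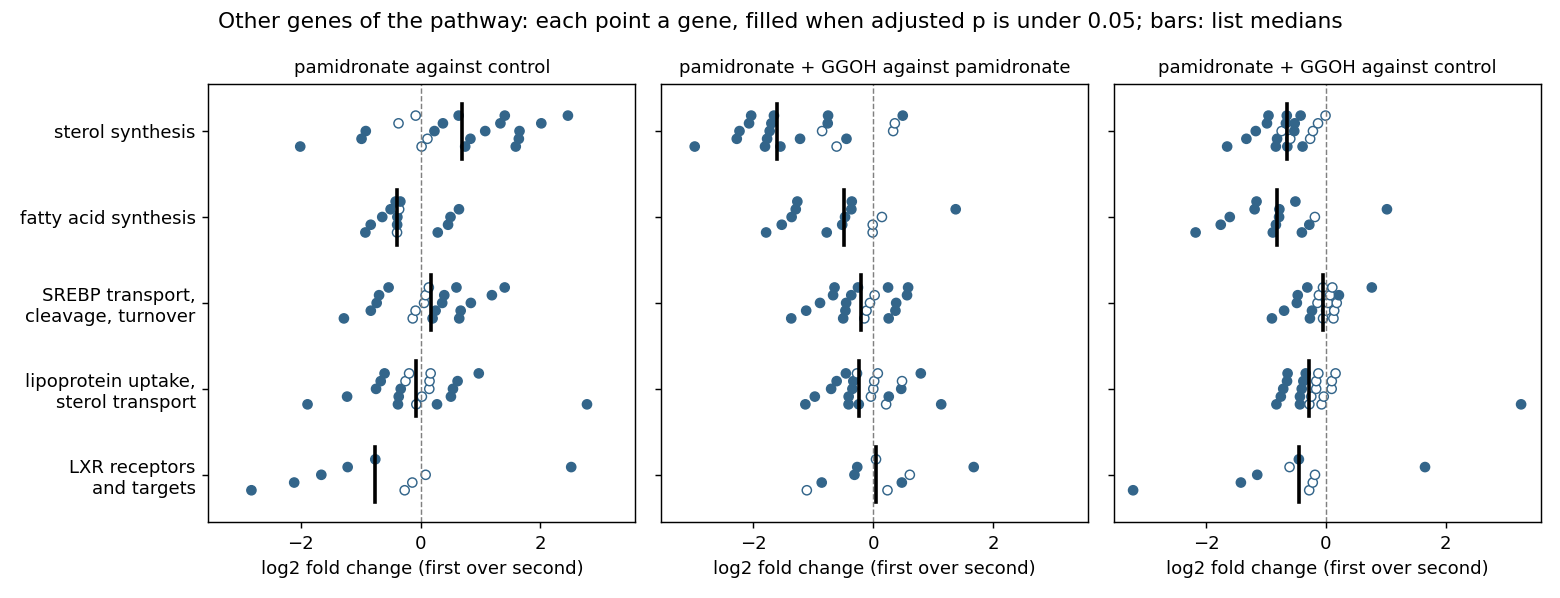
Log2 fold change (horizontal axis, first group over second) of each tested gene in 5 lists around the SREBP pathway, in the 3 comparisons. Filled points have an adjusted p under 0.05 and bars are list medians, which for sterol synthesis stand at 0.69, -1.60 and -0.65.

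Genes whose levels ran most like each of the 7 were ranked by Pearson's r of log2(CPM + 1) over the 9 libraries. The ranking drew on 10652 tested genes, from which the 7 themselves were left out when naming neighbours. The libraries fall into 3 treatment groups, so r mostly reflects differences between groups. For Insig1 the nearest were Sp1, Slc11a2 and Nub1, with r of 0.997 each, although each of them spanned much less than Insig1. Sp1 lay at 204 ± 14.0 CPM with pamidronate + GGOH, 398 ± 19.8 CPM with pamidronate and 204 ± 11.4 CPM in controls (SD, n = 3 each). In the same order of groups, Slc11a2 averaged 60.8, 159 and 65.2 CPM and Nub1 70.3, 225 and 74.7 CPM. For Srebf2 they were Sh2b2 (0.995), Mak16 (0.991) and Ccdc117 (0.989), and for Srebf1 Acad9 (0.994), Dcaf7 (0.987) and Eif3j2 (0.980). For Scap they were Tmem173 (0.996), Rpn2 (0.994) and St7 (0.992). For Mylip they were the macrophage-expressed genes Mpeg1, Fcer1g and Tnfrsf1b, with r of 0.996 each. For Stard4 the first was Acat2 (0.990), a gene of the sterol list that makes the acetoacetyl-CoA used by Hmgcs1, followed by Rnf7 (0.986) and Taf1 (0.985). Insig2, with its narrow band, had Atxn3 (0.873) as its nearest named gene, followed by Prnp (0.823) and Tomm22 (0.811). On log2(TPM + 1), a setting added after seeing the data, the same pairs had r from 0.573 for Insig2 with Prnp to 0.994 for Mylip with Tnfrsf1b.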

How the data were processed

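RNA of RAW 264.7 cells was sequenced in 9 libraries from 300 ng of total RNA each after removal of ribosomal RNA, per the labels' protocols. Trimmomatic 0.36, DESeq and the build GRCm38 are named per the submitters' processing notes, with no role for DESeq. Which aligner and counting tool were run, and whether counting used strand, is not given in the sources used here. Raw counts per gene, whole numbers deposited by the authors, were the input of every test. The authors also deposited TPM values per gene, which equal counts over exon length scaled to 1 sum per library and were used to compare genes and to form ratios. A percentage stands in the names of the pamidronate + GGOH libraries and is not explained.

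Counts were filtered with filterByExpr at its defaults, scaled with TMM factors and tested with edgeR 4.0.16 (quasi-likelihood, robust fit, R 4.3.3) in 1 model of 3 group means over 9 libraries, with Benjamini-Hochberg adjustment over 15963 genes and calls at an adjusted p under 0.05. CPM values use the TMM factors. The standard error of a log2 fold change was taken from the F statistic of the test, with 95% intervals for single genes. Log2 ratios of TPM were compared with exact permutation tests. The test was checked on simulated counts with few genes changed and a common spread, a setting that does not bear on the choice of scaling factors. Replicates were no copies of each other: chi-square per degree of freedom ran from 4.00 to 37.2 between libraries of a group. Same-numbered libraries of different groups had correlations of deviations between -0.37 and 0.43 over 9 pairs. Differently numbered ones had -0.38 to 0.33 over 18 pairs. With ranges this wide and this alike, pairing by replicate number was neither shown nor excluded.

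The genes, lists, motifs and tests were chosen with earlier results of these data known. Genes named from a list are the called genes with the largest absolute change in pamidronate against control, up to 4 per list, of at least 5 CPM in the higher group mean. For likeness they are the 3 nearest genes of at least 5 CPM, leaving out predicted and clone-named ones. Other genes of a list were named after their values were seen, to complete counts of 5 or fewer. Some genes of the lists enter the counts and medians but are not reported here by name. Alternatives were RLE and upper-quartile factors, totals without mitochondrially encoded genes, no filter and a stricter filter (at least 50 counts in at least 3 libraries), DESeq2 1.42.0, limma-voom (limma 3.58.1), the 2 groups alone, a replicate block, leaving out each library, and an adjusted p under 0.01.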

Additional observations from a re-analysis of the deposited data

How the results depend on the processing

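In pamidronate against control, 5 of the 7 genes were called under every alternative. In pamidronate + GGOH against pamidronate the count was 6 with no filter on low counts and 4 to 5 when 1 library was left out. In pamidronate + GGOH against control it was 3 in place of 5 with upper-quartile factors, with the stricter filter, with the 2 groups alone and at an adjusted p under 0.01, and 3 to 5 when 1 library was left out. With the replicate block the count was 5 in each comparison and no call of the 7 genes changed. Over the whole table that fit called 10980 genes in pamidronate against control, 7622 in pamidronate + GGOH against pamidronate and 8275 in pamidronate + GGOH against control. As no pairing by replicate number was shown, this fit is given only as a check. The log2 ratio of Insig1 to Insig2 in pamidronate + GGOH against control ran from -0.37 to 0.089, and that of Srebf1 to Srebf2 from -0.16 to 0.15, when 1 library was left out. On log2(TPM + 1) the Srebf1 to Srebf2 difference was 0.00092.

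Signs turned under an alternative for the values that follow, none of which was called in the reported fit. In pamidronate against control, Srebf1 was at 0.11 with upper-quartile factors and 0.031 with the stricter filter, and Insig2 at -0.044 with no filter and from -0.025 to 0.052 leaving out 1 library. Insig2 ran from -0.10 to 0.062 in pamidronate + GGOH against pamidronate leaving out 1 library. In pamidronate + GGOH against control, leaving out 1 library gave -0.51 to 0.050 for Insig1, -0.10 to 0.044 for Insig2, -0.051 to 0.082 for Sec24a, -0.085 to 0.22 for Sec23a and -0.10 to 0.012 for Sec13. There, upper-quartile factors gave 0.16 for Insig2, 0.16 for Sec13 and 0.041 for Lrp8, and the stricter filter gave 0.081 for Insig2 and 0.074 for Sec13. Sec24a was at -0.0022 with no filter, and was called with upper-quartile factors, at 0.24 (adjusted p = 0.0468). The cause was not tested.

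Of the lists, LXR calls in pamidronate + GGOH against pamidronate were 3 in place of 5 with no filter, at an adjusted p under 0.01 and without pamidronate + GGOH replicate 1, replicate 2 or control replicate 2. Transport and cleavage calls in pamidronate + GGOH against control were 5 in place of 9 without control replicate 2 and at an adjusted p under 0.01. Oxysterol calls in pamidronate against control were 2 in place of 1 with no filter. The promoter count was 1 in place of 0 with the shorter core TCACNCCA. With 3 libraries a group, an exact test of a single value cannot go under 0.1.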
